A study of Mus musculus with 3 samples.

Results

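Mir101a, Mir101b and Mir126a are the mouse genes of miR-101 and miR-126, and they were chosen by the share of reads at each 5′ start in these libraries, where the 3p arm of each gene was read from a pair of neighbouring starts. They are 3 of the 638 named miRNA genes searched. A read belonged to a gene when its insert of 18 to 25 nt matched the gene's hairpin exactly or with 1 to 2 untemplated bases at the 3′ end. The share of reads at each start is given below as a description with no test. Lengths, 3′ ends, tails, levels and the use of the other arm were not part of the choice. No start of a 3p arm reached 60% of its reads in either library, which describes the values used for the choice and is no check on it.

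The small RNAs came from HL-1, a line of mouse heart muscle cells, and were harvested 48 h after Lipofectamine transfection with 9 µl of a 20 µM siRNA stock. The series set siRNAs against Srf, whose protein switches on many muscle genes, beside an unspecific siRNA. Values come from the libraries titled siSrf1 and siSrf2, with 1 library per group, and the one titled siNon was not analysed here. All groups are the same cell line and received an siRNA, so the values below compare a pair of transfected cultures and not a knockdown with untreated cells. The siRNA entry goes against the title in both samples used, since it reads Srf si2 where the title has siSrf1, and siNon where the title has siSrf2. The titles define the groups here, so a direction is one between libraries as labelled.

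The library labelled siSrf1 held 14911499 reads, of which 5175460 were assigned to miRNAs. The library labelled siSrf2 held 14518157 reads, of which 4478515 were assigned to miRNAs. The 6 muscle miRNA genes of the marker list took 65.5% of miRNA reads in the library labelled siSrf1 and 54.7% in the library labelled siSrf2, which matches the labelled muscle cell type. Most of these reads were miR-1a-3p, with 3308388 and 2371548, while Mir208a had 260 and 371 and Mir206 had 26 and 17. Genes whose arms had the same most frequent insert were counted together, so a listed gene can include reads of its other copies. The 4 fibroblast and smooth muscle miRNA genes, led by Mir199a-1 and Mir143, summed to 25798 and 25398 RPM, reads per 1000000 miRNA reads. The 6 blood cell miRNA genes summed to 95.3 and 103 RPM, with Mir155 at 0, and the 7 epithelial ones to 11.8 and 9.15 RPM, with Mir141 and Mir205 at 0. No marker list was set for endothelium, in which miR-126 is best known, so the part of other cell types in the miR-126 reads was not tested. Inserts matching the Srf mRNA numbered 36 in the library labelled siSrf1 and 1230 in the library labelled siSrf2.

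A miRNA is cut from the stem of a hairpin RNA. Drosha cuts at the base of the stem and Dicer near the loop, so the 5′ end of a 5p arm comes from Drosha and that of a 3p arm from Dicer. Bases 2 to 8 of the mature RNA, the seed, pair with target mRNAs, and a shift of the 5′ end by 1 nt gives another seed. Enzymes that add single adenines or uracils to the 3′ end leave tails that the genome does not encode. miR-101 is known for repressing Ezh2, a histone methyltransferase, and miR-126 for its role in blood vessel endothelium, where it lies within the gene Egfl7.

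The hairpins are printed first, since the start positions are counted on them, and capitals mark the most frequent insert of each arm with at least 50 reads. They were taken from RefSeq (GRCm38.p6), and all sequences run 5′ to 3′. Their loci in the NCBIM37 build are chr4:101019550-101019632 on the minus strand for Mir101a, chr19:29209769-29209865 on the plus strand for Mir101b, and chr2:26446877-26446949 on the plus strand for Mir126a. Mir101a overlaps an exon of the long noncoding RNA E130102H24Rik. Mir101b lies in an intron of Rcl1. Mir126a lies in an intron of all 9 protein-coding Egfl7 transcripts that span it, and it overlaps an exon of 1 Egfl7 transcript that retains this intron.
Mir101a: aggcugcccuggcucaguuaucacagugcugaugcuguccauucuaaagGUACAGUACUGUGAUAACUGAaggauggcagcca
Mir101b: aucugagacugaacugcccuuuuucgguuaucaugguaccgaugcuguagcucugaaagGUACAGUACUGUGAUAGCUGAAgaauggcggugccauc
Mir126a: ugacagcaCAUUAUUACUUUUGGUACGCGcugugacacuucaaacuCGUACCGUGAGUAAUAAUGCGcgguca

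The inserts below are the most frequent one over both libraries at each main start of the 3p arms and of miR-126a-5p, and capitals mark the seed. They are shown because the finding is the shift of the seed by 1 nt. Start 0 of a 3p arm is the one that begins with U, -1 lies 1 nt nearer the loop and +1 lies 1 nt farther from it. The earlier start of both miR-101 arms begins with G and the later with U, and the earlier start of miR-126a-3p begins with U and the later with C. At the U start of miR-101a-3p, the insert that ends 1 nt earlier was read about as often as the one shown. It had 1939 reads against 1894 in the library labelled siSrf1 and 1566 against 1651 in the library labelled siSrf2.
miR-101a-3p at -1 (G start): gUACAGUAcugugauaacuga
miR-101a-3p at 0 (U start): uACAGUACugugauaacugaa
miR-101b-3p at -1 (G start): gUACAGUAcugugauagcugaa
miR-101b-3p at 0 (U start): uACAGUACugugauagcugaag
miR-126a-3p at 0 (U start): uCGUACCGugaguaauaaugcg
miR-126a-3p at +1 (C start): cGUACCGUgaguaauaaugcg
miR-126a-5p at 0: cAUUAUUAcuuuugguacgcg

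miR-101a-3p was read about as often from the G start as from the U start. In the library labelled siSrf1 6031 reads began at the U start, 52.8% of the arm, and 5362 at the G start, 47.0%. In the library labelled siSrf2 5149 reads began at the U start, 52.6%, and 4611 at the G start, 47.1%. The U share thus differed by 0.25 percentage points between the libraries. Together the pair of starts held 99.8% of reads in the library labelled siSrf1, against 99.6% in the library labelled siSrf2, and each further start had at most 28 reads in a library.

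miR-101b-3p, which has the same letters over both seeds, leaned to the G start. The G start held 683 reads, 58.7%, in the library labelled siSrf1 and 1115 reads, 56.3%, in the library labelled siSrf2. The U start held 465 reads, 39.98%, in the library labelled siSrf1 and 836 reads, 42.2%, in the library labelled siSrf2. The difference in the U share between the libraries was -2.20 points. A minor start at +1 held 1.12% and 1.46% of the arm, from 13 and 29 reads. The U share of miR-101a-3p was 12.8 points above that of miR-101b-3p in the library labelled siSrf1 and 10.4 points above it in the library labelled siSrf2, values given without a test.

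miR-126a-3p was split between the U and the C start, 1 nt farther from the loop. The C start held 810 reads, 51.5%, in the library labelled siSrf1 and 649 reads, 52.6%, in the library labelled siSrf2. The U start held 677 reads, 43.0%, and 517 reads, 41.9%, a difference between the libraries of 1.08 points. The arm was looser at its 5′ end than the miR-101 arms: the start at -1 held 4.38% and 4.06% of reads, and the start at +2 held 1.14% and 1.38%. The other arm of the same hairpin was not split. miR-126a-5p began at its main start in 97.4% of 1551 reads in the library labelled siSrf1 and in 97.7% of 1138 reads in the library labelled siSrf2, with 2.45% and 1.93% starting 1 nt later.

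**Figure D1:**
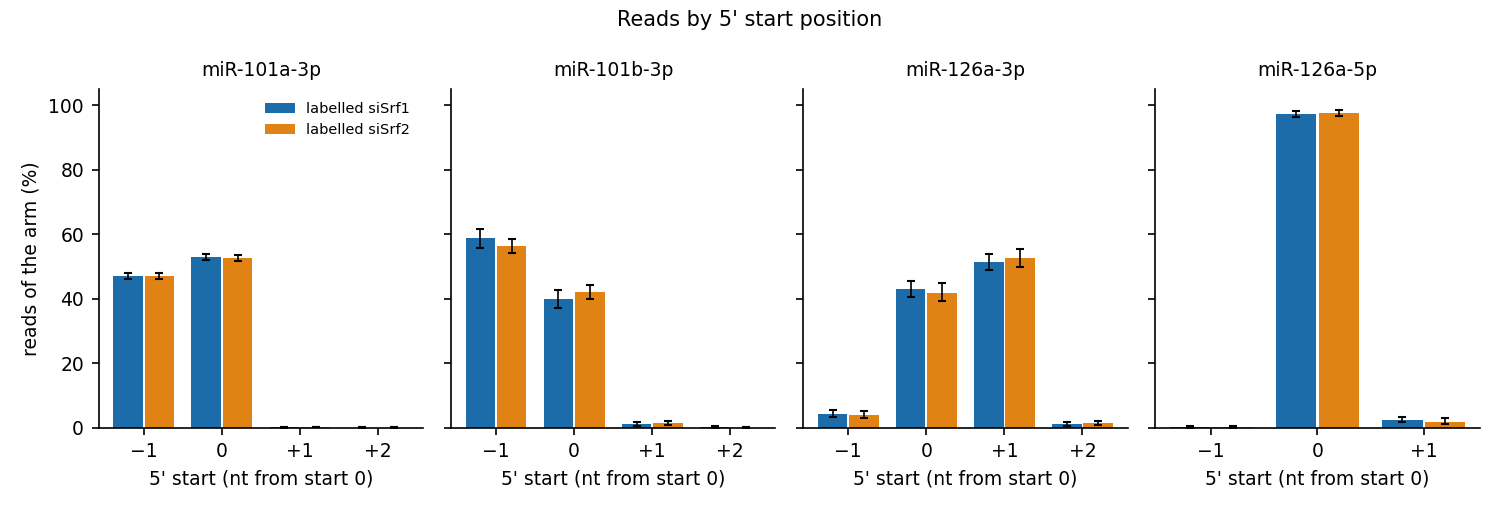
Share of the reads of each arm (%) by 5′ start, in nt from start 0, for the libraries labelled siSrf1 and siSrf2, with exact 95% binomial intervals. The 3 arms of the 3p side have a pair of tall bars each, whereas miR-126a-5p has 97.4% and 97.7% of its reads at 1 start.

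All intervals here and below are exact or score intervals at 95% and cover counting error only. The reads carry no molecular identifiers, and there is no replicate check with 1 library per group, so no p-value is given for any difference between the libraries.

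The starts fall into a few seeds. The G start of both miR-101 arms carries the seed UACAGUA, which in RefSeq belongs to the annotated miR-101b-3p, and the U start of both carries ACAGUAC, the seed of the annotated miR-101a-3p. Each miR-101 gene therefore gave reads with the annotated seed of the other. At the G start, and over both miR-101 genes, miR-101b-3p gave 11.3% in the library labelled siSrf1 and 19.5% in the library labelled siSrf2, and at the U start it gave 7.16% and 13.97%. The minor +1 start of miR-101b-3p has the seed CAGUACU of the annotated miR-101c, and miR-101a-3p had 19 and 28 reads at its own +1 start. The C start of miR-126a-3p has the seed GUACCGU, which 0 of the RefSeq mature miRNAs of the table share, and the same holds for its starts at -1 and +2. The RefSeq set used holds no mature miR-126a-5p, and the seed AUUAUUA of that arm's main start also has 0 matches. A count of 0 therefore does not show that a seed is unknown. The minor start of miR-126a-5p carries UUAUUAC, the seed of the annotated miR-126b-5p. No insert matched the opposite strand of the 3 hairpins exactly in either library, which allows up to 3 reads in each.

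The split set these arms apart from most others as the choice requires. Over the 82 arms with at least 500 reads in each library, the median share of the main start was 99.0%. It lay under 90% in 15 arms and under 60% in 5, and the 3 chosen 3p arms are among those 5, at the ranks 2, 3 and 5 from the lowest. miR-126a-5p ranked 26 from the lowest. The arms most like them in main start share were miR-140-3p with 48.9% in the library labelled siSrf1 and 51.0% in the library labelled siSrf2, and miR-133a-3p with 56.6% and 54.3%. Next came miR-23b-5p with 59.6% and 61.6%, miR-322-3p with 71.8% and 74.0%, and miR-30a-3p with 78.7% and 76.6%. Likeness was the distance in that share from the mean of miR-101a-3p and miR-126a-3p, taken over both libraries.

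miR-101a-3p was the most abundant of these arms. Scaled to miRNA reads, it had near equal levels in the libraries, and miR-101b-3p had the largest difference of the 4 arms. miR-101a-3p had 11420 reads, or 2207 RPM, in the library labelled siSrf1, against 9796 reads, or 2187 RPM, in the library labelled siSrf2. The log2 ratio was 0.01, with an interval from -0.03 to 0.05. miR-101b-3p had 1163 reads, or 225 RPM, against 1982 reads, or 443 RPM, a log2 ratio of -0.98 (-1.08 to -0.87). That is 1.97-fold lower in the library labelled siSrf1, just short of the 2-fold that was needed to call an arm. miR-101b-3p was lower in that library at both starts, with log2 ratios of -0.92 (-1.06 to -0.78) at the G start and -1.05 (-1.22 to -0.89) at the U start.

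miR-126a gave both arms in nearly equal amounts. miR-126a-3p had 1574 reads, or 304 RPM, in the library labelled siSrf1, against 1233 reads, or 275 RPM, in the library labelled siSrf2. Its log2 ratio was 0.14 (0.04 to 0.25). miR-126a-5p had 1551 reads, or 300 RPM, against 1138 reads, or 254 RPM, a log2 ratio of 0.24 (0.13 to 0.35). None of the 4 arms passed the size rule of a 2-fold difference with the interval on 1 side of 0. Over the 242 arms with at least 50 reads, 0% were called higher in the library labelled siSrf1 and 24.4% higher in the library labelled siSrf2. The median log2 ratio over those arms was -0.41, so miR-101a-3p and both miR-126a arms lay above the median and miR-101b-3p below it. The distance of these values from 0 depends on the scaling, while their place above or below the median does not. miR-1a-3p alone took 63.9% of miRNA reads in the library labelled siSrf1 and 53.0% in the library labelled siSrf2. TMM factors of edgeR added 0.49 to every log2 ratio and DESeq2 size factors 0.41. With TMM factors the log2 ratios were 0.50 for miR-101a-3p, -0.49 for miR-101b-3p, 0.63 for miR-126a-3p and 0.73 for miR-126a-5p, so that miR-101b-3p no longer had the largest difference. In bulk RNA, fewer cells that make a miRNA and less of it per cell cannot be told apart.

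**Figure D2:**
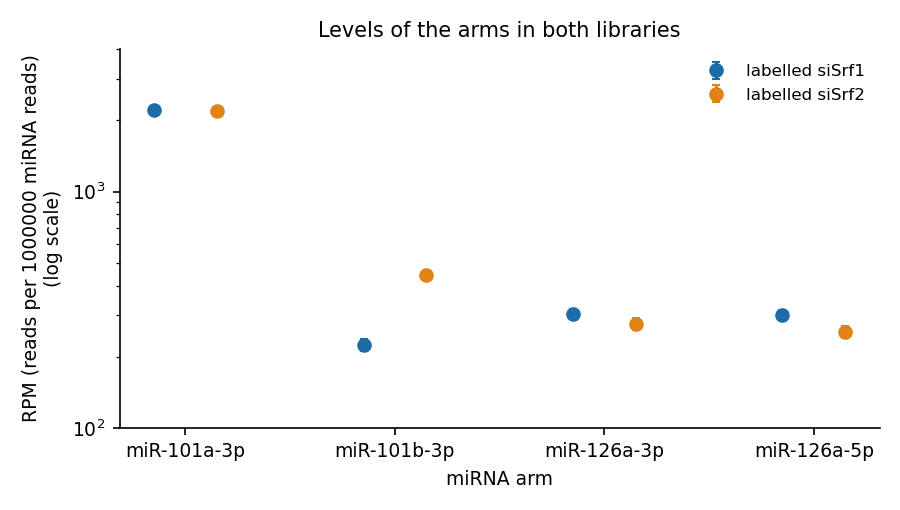
RPM, reads per 1000000 miRNA reads, (log scale) of the 4 arms with at least 50 reads, for the libraries labelled siSrf1 and siSrf2, with exact 95% Poisson intervals. miR-101a-3p lies at 2207 and 2187 RPM, and miR-101b-3p is the arm whose points stand farthest apart, at 225 and 443 RPM.

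The pair of miR-101 genes was told apart by a single base within the mature RNA. miR-101b-3p differs from miR-101a-3p by A16G at the U start and by A17G at the G start, where positions count from 1 at the insert's 5′ end. Inserts with that change made up 7.93% of the number of unchanged miR-101a-3p inserts in the library labelled siSrf1 and 15.4% in the library labelled siSrf2. The other 10 A-to-G changes of the same inserts averaged 0.05% in each library, with a highest value of 0.16% and 0.19%. Over all 109 other single-base changes the median was 0.09% and 0.11%, and the highest was 2.36% and 1.80%. These shares are pooled over insert lengths, except the highest A-to-G values. Those belong to a single length each, 22 nt at the G start in the library labelled siSrf1 and 20 nt at the U start in the library labelled siSrf2. By start and length, the miR-101b base ranged from 2.11% (20 nt at the U start) to 17.96% (22 nt at the G start) in the library labelled siSrf1, and from 4.21% to 34.4% in the library labelled siSrf2. The 3p reads of miR-101 came from miR-101b-3p for 9.24% (8.74 to 9.76) in the library labelled siSrf1, against 16.8% (16.2 to 17.52) in the library labelled siSrf2, a difference of -7.59 points (-8.43 to -6.74). This share does not depend on how the libraries are scaled. The most frequent insert of every named start had 1 exact place in the NCBIM37 genome.

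The 5p arms of the miR-101 genes were almost unread. miR-101a-5p had 2 reads in the library labelled siSrf1 and 1 in the library labelled siSrf2, or 0.02% and 0.01% of the gene's reads. The 5p side of Mir101b had 1 read and 0, and that read began at hairpin position 3, outside the annotated arm. Mir126a was the opposite, with 49.6% (47.9 to 51.4) of its reads coming from the 5p arm in the library labelled siSrf1, against 48.0% (46.0 to 50.03) in the library labelled siSrf2. In the fold predicted by RNAfold, the most read miR-126a-5p insert ends at hairpin position 29. Set against the 3p starts, it overhangs by 2 nt at the C start, by 1 nt at the U start and by 0 nt at -1, where the bases at the U start and at -1 are unpaired in the fold. With the RefSeq 5p end of Mir101a the overhang was 1 nt at the U start and 0 nt at the G start. For Mir101b the same measure gave -3 nt at the U start and -4 nt at the G start, which means that the annotated 5p arm ends short of the base opposite.

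The 3′ ends of the 3p arms moved with the 5′ start in part. At the U start of miR-101a-3p, 628 reads, 10.4%, ended at hairpin position 72 in the library labelled siSrf1. In the library labelled siSrf2 577 reads did so, 11.2%. That end lies 2 nt past the end of the arm's most frequent insert, which begins at the G start. At the G start the same end had 3 reads and 1. The nearer end at position 70 held 33.3% and 31.2% of the U start, against 49.8% and 47.2% of the G start. The templated bodies that start 1 nt later thus also ended later on average, but by less than 1 nt. Insert length with the tail averaged 21.0 nt at the U start in each library and 21.5 nt at the G start.

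miR-101b-3p showed the larger shift of the end. The most frequent end was position 82 at the U start, with 52.3% in the library labelled siSrf1 and 50.6% in the library labelled siSrf2. At the G start it was position 81, with 63.1% and 65.2%, and position 82 had 0 reads and 1. Lengths were accordingly alike at the U and the G start, with means of 21.7 and 21.8 nt in the library labelled siSrf1 and 21.8 and 21.8 nt in the library labelled siSrf2. The libraries differed at the U start. Reads ending at position 83, a templated A that an adenine added after position 82 would also give, made up 4.95% in the library labelled siSrf1 and 9.69% in the library labelled siSrf2, and those of 23 nt made up 8.17% and 17.46%. A tail of 2 adenines ended 1 of 465 U start reads in the library labelled siSrf1, 0.22%, and 18 of 836 in the library labelled siSrf2, 2.15%.

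miR-126a-3p had the same most frequent end at both starts, and its 3′ end also lay somewhat later at the later start. Position 67 was that end, with 89.5% and 87.7% of reads at the C start and 68.7% and 69.8% at the U start. The templated part averaged 20.8 nt at the C start in each library, against 21.4 and 21.5 nt at the U start, so the later start ended later by less than 1 nt. The whole insert was shorter at the C start, with a mean of 21.4 nt in the library labelled siSrf1 and 21.3 nt in the library labelled siSrf2, against 21.8 and 21.9 nt at the U start. The reads at -1 averaged 22.1 and 21.9 nt. Shorter ends were more common at the U start: position 65 held 3.70% and 5.70% of the C start, against 14.5% and 14.5% of the U start.

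**Figure D3:**
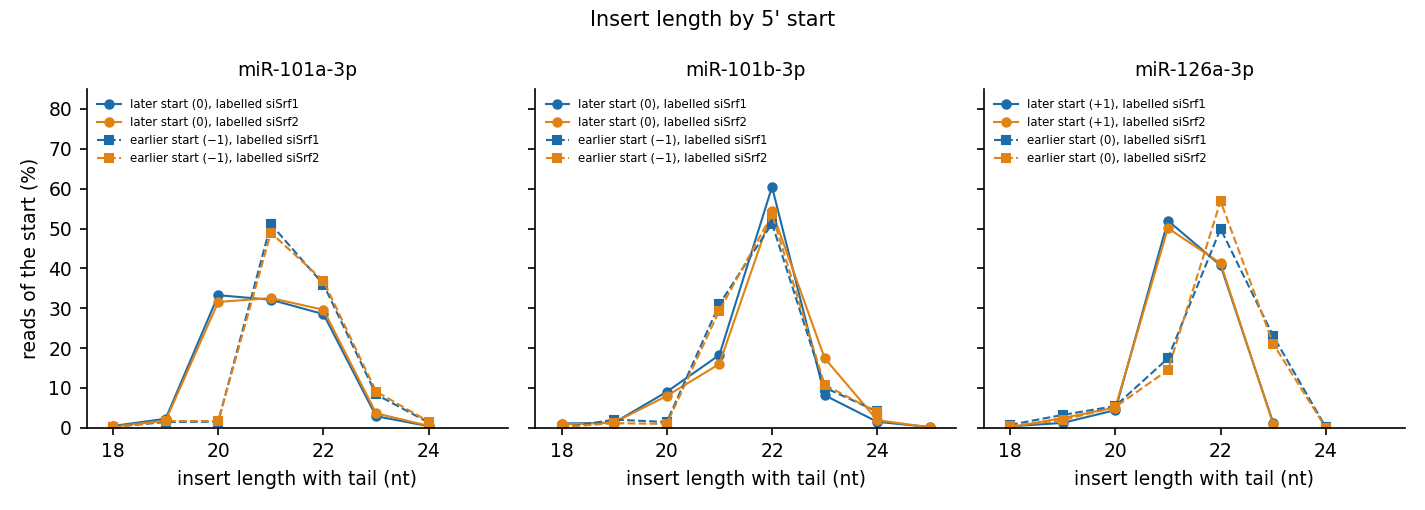
Share of the reads of each main start (%) by insert length with tail (nt), for the 3p arms in the libraries labelled siSrf1 and siSrf2. The later start of miR-101a-3p is spread over 20 to 22 nt where the earlier peaks at 21 nt, both starts of miR-101b-3p peak at 22 nt, and the later start of miR-126a-3p peaks 1 nt below the earlier.

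The later start of miR-101a-3p and of miR-126a-3p was more often tailed than the earlier one, a measure that was no part of the choice. At the U start of miR-101a-3p 25.2% of 6031 reads had an untemplated tail in the library labelled siSrf1 and 26.7% of 5149 in the library labelled siSrf2. At its G start 13.2% of 5362 and 14.6% of 4611 reads were tailed. The later start was thus more tailed by 12.1 points (10.6 to 13.5) in the library labelled siSrf1 and by 12.03 points (10.4 to 13.6) in the library labelled siSrf2. miR-126a-3p had the same order, with 46.2% and 47.0% tailed at the later C start and 34.6% and 33.8% at the U start. The differences were 11.6 points (6.61 to 16.5) and 13.1 points (7.49 to 18.7).

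miR-101b-3p did not show this difference in all tails. At its U start 15.5% and 18.5% were tailed and at its G start 18.01% and 18.5%, differences of -2.52 points (-6.81 to 1.95) in the library labelled siSrf1 and 0.07 points (-3.38 to 3.59) in the library labelled siSrf2. These intervals span 0. The share of all tails is not like for like between the miR-101 genes, because the hairpin of Mir101b goes on with A after position 82, the most frequent end of the U start, and an adenine added there counts as template.

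Over all 3′ ends together, a single added uracil was more frequent at the later start in all 3 arms and in both libraries. It ended 4.51% and 4.64% of reads at the U start of miR-101a-3p, against 1.32% and 1.78% at the G start. For miR-101b-3p the values were 6.24% and 7.18% at the U start, against 2.20% and 3.23% at the G start, differences of 4.04 points (1.72 to 6.76) and 3.95 points (1.97 to 6.09). For miR-126a-3p they were 10.9% and 11.7% at the C start, against 2.22% and 1.74% at the U start, differences of 8.65 points (6.23 to 11.1) and 9.97 points (7.25 to 12.8). A single added adenine was the most frequent tail over each of the 3 arms but followed the start less evenly. It stood at 16.6% and 18.1% at the U start of miR-101a-3p, against 7.98% and 8.70% at the G start. At the C start of miR-126a-3p it stood at 31.0% and 30.8%, against 28.5% and 26.1% at the U start, and the intervals of both differences span 0. In miR-101b-3p it stood at 6.67% and 7.66% at the U start, against 9.22% and 10.1% at the G start, differences of -2.56 points (-5.64 to 0.72) and -2.48 points (-4.98 to 0.11).

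**Figure D4:**
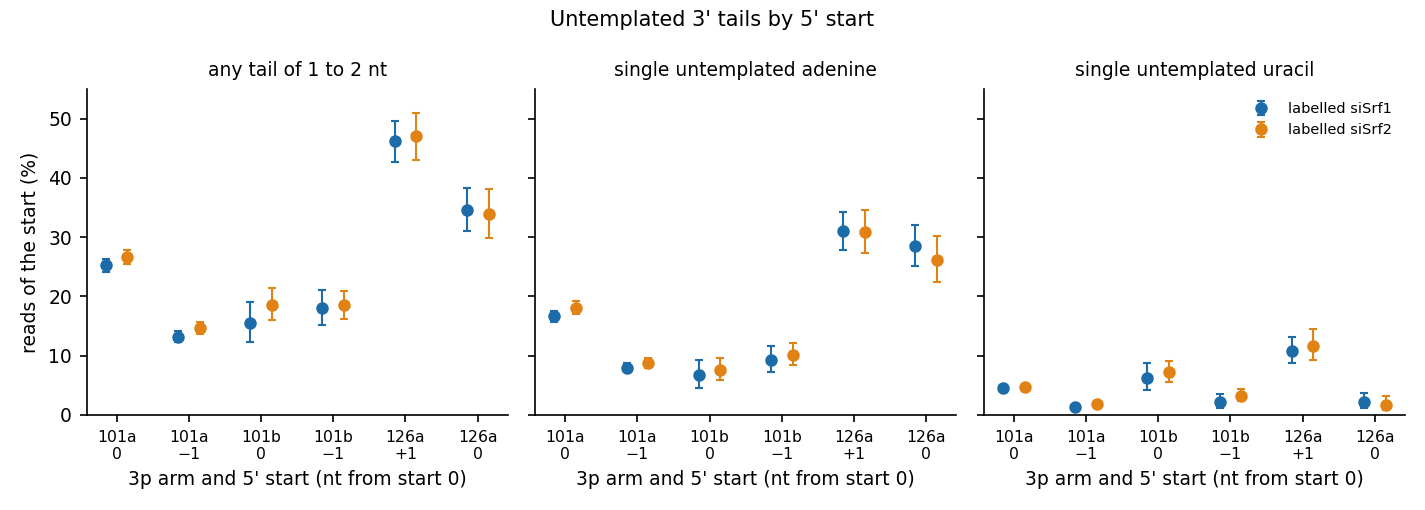
Share of the reads of each main start (%) with any untemplated tail of 1 to 2 nt, a single adenine or a single uracil, for the 3p arms in the libraries labelled siSrf1 and siSrf2, later start left of the earlier, with exact 95% intervals. In the uracil panel the later start lies above the earlier in every arm, and in the panel of all tails miR-101b-3p has overlapping intervals.

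Part of a tail can hide in the template, so reads with the same templated end were compared as well. After miR-101a-3p reads that end at position 70 the hairpin goes on with A, and an added adenine there counts as template. Among reads ending at position 71, 39.8% and 40.7% were tailed at the U start of miR-101a-3p, against 21.4% and 22.8% at the G start. At position 81 of Mir101b, 37.6% and 42.8% were tailed at the U start, against 22.3% and 22.1% at the G start, the same order as in miR-101a-3p at position 71. At position 67 of Mir126a, 45.0% and 45.9% were tailed at the C start, against 32.5% and 27.98% at the U start. At position 66 of Mir126a, a rarer end with 39 to 83 reads per start and library, the order was the same. There 52.0% and 51.3% were tailed at the C start, against 18.1% and 32.8% at the U start. The interval of that difference spans 0 in the library labelled siSrf2. The other shared ends, all of the miR-101 genes, had small differences or another order. At position 70 of Mir101a, the end after which an added adenine is masked, 3.39% and 2.43% were tailed at the U start, against 1.61% and 1.70% at the G start. At position 80 of Mir101b, likewise followed by A, 12.8% and 2.94% were tailed at the U start, against 6.07% and 7.87% at the G start, and the intervals of both differences span 0. The order was the other way at position 69 of Mir101a, which is also followed by A. This rare end had 124 to 167 reads per start and library. There 22.8% and 29.8% were tailed at the U start, against 51.3% and 54.4% at the G start. Farther out, at position 68 of Mir101a, 65.8% and 73.6% were tailed at the U start, against 48.0% and 47.3% at the G start. Its reads numbered 79 and 53, against 148 and 150. At position 65 of Mir126a, 66.7% and 56.8% were tailed at the C start, against 64.3% and 64.0% at the U start. That end had 30 to 98 reads per start and library. No interval was computed for the differences at these farther ends. Single uracils were more frequent at the later start at positions 71 of Mir101a, 81 of Mir101b and 67 of Mir126a. They were not at positions 69 and 70 of Mir101a, 80 of Mir101b and 66 of Mir126a. The farther ends had few single uracils. Position 68 of Mir101a had 3 of 79 and 3 of 53 at the later start, against 1 of 148 and 1 of 150. Position 65 of Mir126a had 2 of 30 and 0 of 37 at the later start, against 2 of 98 and 2 of 75. Position 71 had 215 of 3148 and 189 of 2785 at the later start, against 13 of 2373 and 15 of 2130. Position 69 had 23 of 167 and 26 of 124, against 42 of 154 and 46 of 147.

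Over whole arms, miR-126a was heavily tailed and miR-101 was not far from the typical arm. Tailed reads made up 39.5% of miR-126a-3p in the library labelled siSrf1 and 40.2% in the library labelled siSrf2, and 34.6% and 31.6% of miR-126a-5p, which ranked 9 and 14 from the highest among the 82 arms. They made up 19.6% and 21.0% of miR-101a-3p and 17.3% and 18.9% of miR-101b-3p, at the ranks 29 and 36. The median of the 82 arms was 14.4%, and the middle of their range, between the quartiles, ran from 10.1% to 24.8%. The tails of miR-126a-5p were mostly single adenines as well, 26.2% and 23.1% of its reads, with single uracils at 5.87% and 6.06%.

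The order of tails by start was seen in other split arms too. Of the 9 other arms whose second start held at least 10% of reads and 100 reads, the later start was more tailed in both libraries in 5, with the interval above 0, and the earlier start in 0. Among the chosen arms it was 2 of 3 against 0 of 3. miR-30a-3p had differences of 19.0 and 15.9 points, miR-140-3p of 14.02 and 15.1 points, and miR-322-3p of 8.15 and 7.44 points. In miR-133a-3p the sign changed, with 2.45 points in the library labelled siSrf1 and -4.74 points in the library labelled siSrf2. In miR-23b-5p the earlier start was the more tailed, by differences of -5.96 and -3.73 points, the second with an interval that spans 0. Higher tailing at the later start is thus not particular to miR-101a-3p and miR-126a-3p.

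**Figure D5:**
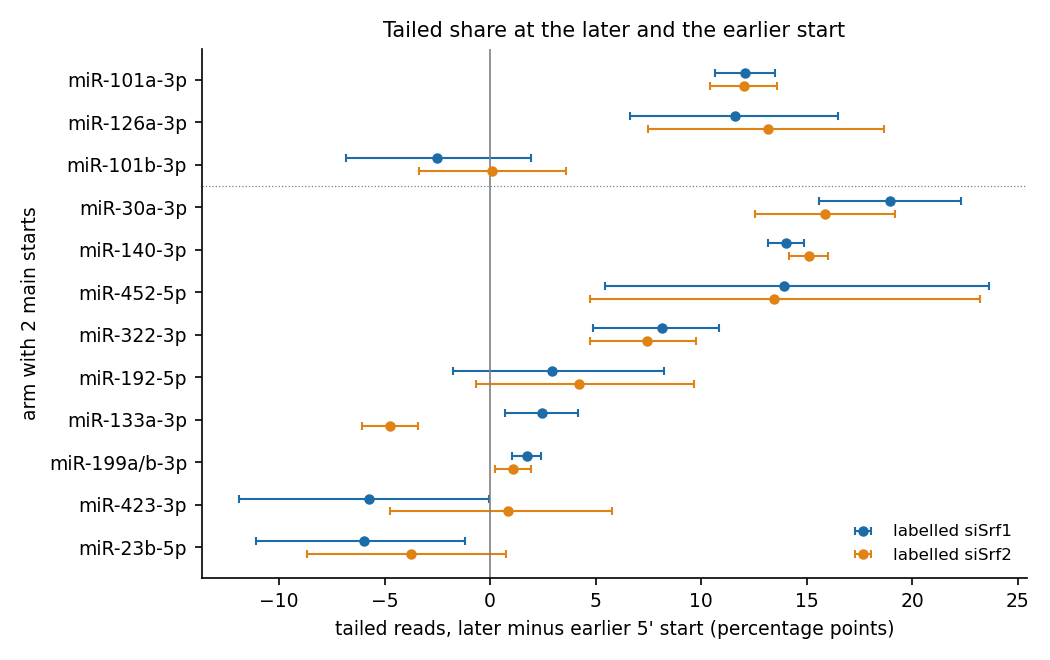
Tailed share at the later minus the earlier start (percentage points) for the 3 chosen arms, above the dotted line, and the 9 other arms with a pair of main starts, in the libraries labelled siSrf1 and siSrf2, with 95% Newcombe intervals. miR-101a-3p and miR-126a-3p lie near 12 points in both libraries, and miR-101b-3p lies at -2.52 and 0.07 points.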

How the data were processed

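Small RNA from HL-1 cells was sequenced with an Illumina small RNA kit on the Genome Analyzer, per the labels. The files deposited by the authors give the read count of every distinct sequence of 36 nt, with the adapter still in place. For aligner, build and filters, the authors' choices were not given in the sources used here. The depth was 14911499 reads (library labelled siSrf1) and 14518157 reads (library labelled siSrf2).

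The adapter was read from the sequences that follow let-7f-5p, and its first 8 nt, or at least 4 nt at the read end, had to match. Inserts of 18 to 25 nt were matched to 643 hairpins of the GENCODE vM1 annotation (NCBIM37), named through RefSeq symbols (528) or hairpin sequence (115), exactly or with an untemplated tail of 1 to 2 nt after at least 16 templated nt, the longest templated part being preferred. A sequencing error in the last bases counts as a tail. Inserts that fit several miRNAs were shared equally. Log2 ratios, siSrf1 over siSrf2, used miRNA reads as the total and a pseudocount of 0.5 reads, with an exact binomial interval. Shares have Clopper-Pearson intervals, differences of shares Newcombe intervals and levels exact Poisson intervals. An arm was called when at least 2-fold apart with the interval on 1 side of 0. Named starts held at least 1% of an arm in either library, and the 5 arms nearest in main start share were named. Arms with a second start of at least 10% and 100 reads were also compared.

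The scripts were tested on simulated data. The members and lists were chosen with earlier results of these data known. Alternatives covered the adapter match, insert lengths, tails, mismatches, sequences seen once, shared inserts, scaling, pseudocount, start window and read minimum. Tools were Python 3.11.15, numpy 2.4.6, pandas 2.3.3, scipy 1.17.1, matplotlib 3.10.9, pysam 0.24.0, RNAfold 2.7.2, R 4.3.3, edgeR 4.0.16 for TMM factors and DESeq2 1.42.0 for size factors.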

Additional observations from a re-analysis of the deposited data

Results flagged for a closer look

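Reads without an adapter match entered no comparison, and some of them begin with the first 18 nt of a named start of these arms. There were 2431 such reads in the library labelled siSrf1 and 1953 in the library labelled siSrf2. For miR-101a-3p they made up 12.3% of all reads beginning with the U start and 11.6% of those beginning with the G start in the library labelled siSrf1, against 11.3% and 11.0% in the library labelled siSrf2. For miR-126a-5p at its main start they made up 21.4% and 18.7%. Their length and tail could not be read.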

How the results depend on the processing

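The tail differences between the starts of miR-101a-3p and miR-126a-3p, the differences in start shares between the libraries and the share of miR-101b-3p in miR-101 moved by no more than their intervals under the alternatives run, of which an adapter match of 12 nt with 1 mismatch was chosen after seeing the data. Of the main results, 138 alternative values were classed as the same, 24 as moved and 0 as reversed. These include the counts of called arms, which have no interval. Scaling moved the log2 ratios of all arms. With edgeR TMM factors they were 0.50 for miR-101a-3p, -0.49 for miR-101b-3p, 0.63 for miR-126a-3p and 0.73 for miR-126a-5p. With DESeq2 size factors they were 0.42, -0.57, 0.55 and 0.65, with the total of all inserts 0.13, -0.86, 0.26 and 0.35, and without miR-1a-3p in the total 0.40, -0.59, 0.53 and 0.62, in the same order. With exact matches only, the 5p share of Mir126a was 51.6% in the library labelled siSrf1 and 51.4% in the library labelled siSrf2, and no tail value can be had. That setting also moved the U share of miR-101a-3p to 49.1% and 48.8% and of miR-126a-3p to 46.5% and 46.4%. Arms called higher in the library labelled siSrf1 numbered 0, against 1 with a minimum of 10 reads, 3 with TMM and 3 with DESeq2 factors. Arms called higher in the library labelled siSrf2 numbered 59, against 87 with a minimum of 10 reads and 18 with a minimum of 500 reads. They numbered 33 with TMM and 37 with DESeq2 factors. No paired analysis was possible because the groups hold 1 library each. Minor starts rest on few reads, and a difference between these libraries cannot be told apart from one between their preparations.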
